A study of Homo sapiens with 4 samples.

Results

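NRF2, the transcription factor encoded by NFE2L2, its inhibitor KEAP1 and 7 antioxidant target genes were followed in libraries labelled HepG2, with and without CRISPR-Cas9 targeting of TXNDC9. In unstressed cells KEAP1 joins NRF2 to a CUL3 ubiquitin ligase, and NRF2 is degraded. Oxidants and electrophiles modify cysteines of KEAP1, so that NRF2 accumulates, pairs with a small MAF protein and binds antioxidant response elements near genes for glutathione synthesis, thiol repair and quinone detoxification. NRF2 is therefore controlled mainly as a protein, and its mRNA level does not measure its activity. The 9 genes were taken by symbol from the 57979 rows of the expression table, and each matched 1 row. All 9 passed the filter for testing, a mean above 1 FPKM (fragments per kilobase of transcript, scaled to the mapped fragments of the library), as did 13246 rows in all.

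Polyadenylated RNA was sequenced from 2 wild-type libraries and 2 TXNDC9 knockout libraries labelled HepG2, a human liver cancer line, all from cells grown in DMEM with fetal bovine serum. The guides were delivered by lentivirus, and the sources used here do not say which of the guides, how many clones or which control vector these libraries carry, or whether the replicates were separate cultures, so p-values measure only the spread between these libraries. TXNDC9 mRNA measured 35.1 and 37.3 FPKM without and 21.9 and 27.6 FPKM with the knockout. Its log2 fold change was −0.55 (SE 0.14, adjusted p = 0.0145 by limma), short of the threshold of 0.01, and 0.12 after each library was rescaled to the same sum (TPM). By western blot, the paper reports less TXNDC9 protein in HepG2 cells given Cas9 and a guide against TXNDC9. Protein was not measured in these libraries. Against the cell line label, the 8 hepatocyte markers examined were nearly absent from all 4 libraries. ALB, AFP, APOA1, APOB, TTR, FGB, SERPINA1 and HNF4A did not exceed 0.449 FPKM in any library, APOA1 was listed at 0 in all 4, and their summed level came to 0.351 and 0.716 FPKM without and 0.0479 and 0.121 FPKM with the knockout. Of 6 markers of blood, endothelial and stromal cells, CD68, COL1A1 and DCN had a mean above 1 FPKM, PTPRC and PECAM1 did not, and KDR was listed at 0 in all 4. The summed level of these 6 came to 36.3 and 29.4 FPKM without and 27.7 and 25.8 FPKM with the knockout. Their part in the results was not tested. The libraries are described below by their genotype label. The sum of all FPKM was larger in the wild-type pair (805816 and 971102) than in the knockout pair (535973 and 568279). The number of reads behind a value is unknown. In bulk RNA, fewer cells with a transcript and less transcript per cell cannot be told apart.

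To show the DNA letters that NRF2 is known to bind, the core of the antioxidant response element was searched for around the 9 genes on both strands. The strict form TGACTCAGC, whose first 7 letters are also a binding site of the AP-1 factors, was searched for in the 10000 bases upstream of each canonical transcript start in hg38, a search chosen after narrower ones. NQO1, GCLC and HMOX1 held it, 3 of the 9 genes, while 12.8% of 20038 protein-coding genes did. In the lines that follow, the 9 letters of the match are in capitals and each sequence is read 5′ to 3′ along its gene. In the GCLC and HMOX1 sequences the core runs on the opposite strand.
NQO1, 455 bases upstream: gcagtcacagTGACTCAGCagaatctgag
GCLC, 3156 bases upstream: cgcacaaagcGCTGAGTCAcggggaggcg
HMOX1, 3940 bases upstream: gctagattttGCTGAGTCAccagtgcctc
HMOX1, 8990 bases upstream: gtctgttttcGCTGAGTCAcggtctagag
HMOX1, 9019 bases upstream: atctgttttcGCTGAGTCAcggtcccggt
HMOX1, 9077 bases upstream: tgtttttcctGCTGAGTCAcggtcccgag
The NQO1 stretch lies at chr16:69726997-69727025 on the minus strand and the GCLC stretch at chr6:53548239-53548267 on the minus strand. The 4 HMOX1 stretches lie on the plus strand of chromosome 22, the nearest at chr22:35377146-35377174 and the farthest at chr22:35372009-35372037.

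A looser core, TGACNNNGC, was searched for in the RefSeq promoter windows (GRCh38.p14) of 250 bases before to 50 bases after a gene's start. Windows of 7 of the 9 genes, all but HMOX1 and SLC7A11, were read, and GCLM and KEAP1 held a match, against 13.3% of 35116 windows. NFE2L2 and KEAP1 had 2 windows each, so a count of genes is not directly comparable with a share of windows. With the still looser TGANNNNGC, 5 of the 7 genes held a match in a window, and so did 41.8% of all windows. The GCLM match began 34 bases before the start, and the KEAP1 match shown, 1 of 2 in a window at the second of its starts, began 31 bases before it.
GCLM, chr1:93909446-93909474, minus strand: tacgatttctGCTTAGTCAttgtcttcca
KEAP1, chr19:10502784-10502812, minus strand: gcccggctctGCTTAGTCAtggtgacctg
These matches are letters in the reference genome, and binding of NRF2 was not measured.

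**Figure D1:**
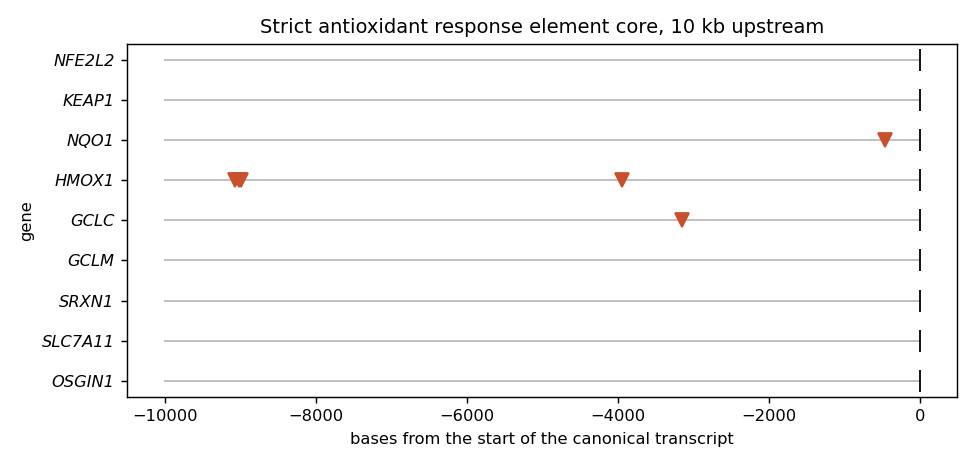
Positions of the strict antioxidant response element core (triangles) in the 10000 bases upstream of the canonical transcript start (vertical bar at 0) of the 9 genes. NQO1 has 1 match, GCLC 1 and HMOX1 4, of which 3 lie close together.

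The transcript of NRF2 itself did not pass the threshold on the deposited scale. NFE2L2 (ENSG00000116044, chromosome 2 of hg38 from 177218667 to 177392756) measured 35.3 and 30.1 FPKM without and 35.9 and 38.9 FPKM with the knockout. Both knockout values lay above both wild-type values, but the nearest pair was less than 1 FPKM apart. The log2 fold change was 0.20 (SE 0.12, adjusted p = 0.193 by limma), and the transcript stood at the 75.2 percentile of mean FPKM among tested rows. Rescaling to TPM gave 0.88 (adjusted p = 0.00359 by limma), on a scale where the median of all tested genes was 0.59 instead of −0.09. By Euclidean distance of centred log2 values over the 4 libraries, the rows most like NFE2L2 were RP11-259K5.2 (0.0275), the zinc finger gene ZNF182 (0.0281) and MYH9 (0.0332), which encodes a nonmuscle myosin heavy chain. With 4 libraries such likeness is only a description.

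KEAP1, the adaptor that presents NRF2 to the ubiquitin ligase, was lower in the knockout libraries. KEAP1 (ENSG00000079999, chromosome 19 from 10486125 to 10503558) measured 50.04 and 65.5 FPKM without and 34.1 and 36.5 FPKM with the knockout. The groups did not overlap, and the wild-type libraries differed more from each other than the knockout libraries did. Wild-type libraries averaged 57.8 ± 11.0 and knockout libraries 35.3 ± 1.69 FPKM (SD, n = 2). The log2 fold change of −0.70 (SE 0.15, adjusted p = 0.00878 by limma) passed 0.01 but was less than 2-fold. After rescaling to TPM it was −0.018 (adjusted p = 0.888 by limma), and after a correction for transcript length and GC content −0.15 (adjusted p = 0.407 by limma). The ratio of KEAP1 to NFE2L2 within a library, which no rescaling of whole libraries changes, was 1.42 and 2.18 in wild-type and 0.950 and 0.939 in knockout libraries. KEAP1 mRNA thus exceeded NFE2L2 mRNA per length in both wild-type libraries and lay just below it in both knockout libraries. The ratio is not corrected for GC content, which is 60.2% in KEAP1 and 42.1% in NFE2L2. After that correction the log2 fold changes were −0.15 for KEAP1 and 0.14 for NFE2L2.

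**Figure D2:**
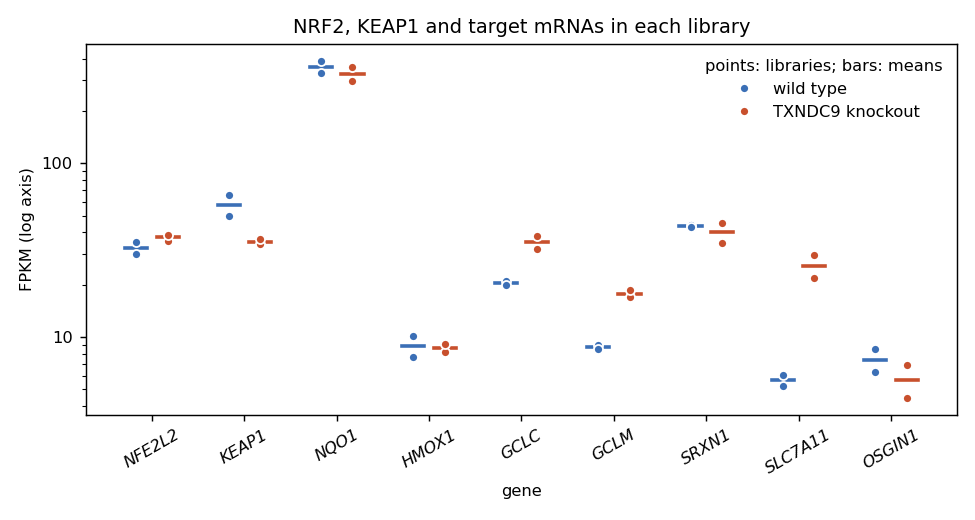
FPKM of NFE2L2, KEAP1 and the 7 target genes on a log axis; each point is a library and each bar the mean of 2 libraries. SLC7A11, GCLM and GCLC have both knockout points above both wild-type points, KEAP1 has both below, and the points of NQO1, HMOX1, SRXN1 and OSGIN1 overlap.

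The 3 genes that supply glutathione, the main cellular thiol, were higher in the knockout libraries on the deposited scale and after rescaling to TPM. SLC7A11 is the light chain of the cystine importer, and cystine provides the cysteine for glutathione. SLC7A11 (ENSG00000151012, chromosome 4 from 138164097 to 138242349) measured 5.23 and 6.08 FPKM without and 21.9 and 29.6 FPKM with the knockout. The lowest knockout value was more than 3 times the highest wild-type value. The means of 5.65 ± 0.600 and 25.7 ± 5.44 FPKM (SD, n = 2) differed by a log2 fold change of 2.15 (SE 0.17, adjusted p = 0.000538 by limma). Within a library, SLC7A11 was 0.0159 and 0.0156 of NQO1 in wild-type and 0.0738 and 0.0823 of NQO1 in knockout libraries. This ratio is not corrected for length or GC content. After that correction the log2 fold changes were 0.90 for SLC7A11 and −0.18 for NQO1.

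GCLC and GCLM encode the catalytic and the modifier subunit of glutamate-cysteine ligase, the rate-limiting enzyme of glutathione synthesis. GCLM (ENSG00000023909, chromosome 1 from 93885199 to 93909456) measured 9.04 and 8.53 FPKM without and 16.9 and 18.7 FPKM with the knockout. The log2 fold change was 1.01 (SE 0.11, adjusted p = 0.000854 by limma), just above the 2-fold limit, and without wild-type replicate 2 it was 0.97, below it. GCLC (ENSG00000001084, chromosome 6 from 53497341 to 53616970) measured 21.1 and 19.98 FPKM without and 32.0 and 38.2 FPKM with the knockout. Its groups did not overlap either, and the log2 fold change of 0.76 (SE 0.12, adjusted p = 0.00291 by limma) passed 0.01 at less than 2-fold. The ratio of GCLC to GCLM was 2.33 and 2.34 in wild-type and 1.89 and 2.05 in knockout libraries, so GCLM rose more than GCLC as deposited. This ratio is not corrected for length or GC content. After that correction the log2 fold changes were 0.38 for GCLC and 0.20 for GCLM. GSS, which completes glutathione, measured 53.8 and 60.9 FPKM without and 39.0 and 41.8 FPKM with the knockout. Its log2 fold change was −0.50 as deposited (adjusted p = 0.00979 by limma) but turned in sign on the other scales. By TPM it was 0.18 (adjusted p = 0.165 by limma), and after correction for length and GC content 0.054 (adjusted p = 0.671 by limma).

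The other 4 targets showed no difference past the threshold on the deposited scale. NQO1, a quinone reductase, is a widely used readout of NRF2 activity. NQO1 (ENSG00000181019, chromosome 16 from 69706996 to 69726668) measured 329.9 and 388 FPKM without and 296 and 359 FPKM with the knockout. The highest of the 9 genes in every library, at the 97.7 percentile of tested rows, it had overlapping groups and a log2 fold change of −0.13 (SE 0.16, adjusted p = 0.492 by limma). SRXN1, the sulfiredoxin that repairs overoxidized peroxiredoxins (ENSG00000271303, chromosome 20 from 646615 to 653200), measured 44.1 and 43.1 FPKM without and 34.9 and 45.1 FPKM with the knockout. The knockout values of SRXN1 lay on either side of the wild-type values, with a log2 fold change of −0.14 (SE 0.14, adjusted p = 0.434 by limma). The ratio of SRXN1 to NQO1 was 0.134 and 0.111 in wild-type and 0.118 and 0.126 in knockout libraries.

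HMOX1 encodes haem oxygenase 1, the inducible enzyme that degrades haem, and is repressed by BACH1 as well as activated by NRF2. HMOX1 (ENSG00000100292, chromosome 22 from 35380361 to 35394214) measured 7.66 and 10.2 FPKM without and 8.16 and 9.07 FPKM with the knockout. Both knockout values lay between the wild-type values (log2 fold change −0.036, SE 0.16, adjusted p = 0.856 by limma). OSGIN1, an oxidative stress induced growth inhibitor (ENSG00000140961, chromosome 16 from 83931311 to 83966332), measured 6.27 and 8.58 FPKM without and 4.47 and 6.87 FPKM with the knockout. Its groups overlapped, and the log2 fold change of −0.40 (SE 0.25, adjusted p = 0.204 by limma) was the least precise of the 9.

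Of the 9 genes, 2 were called higher (SLC7A11 and GCLM) and 0 lower at an adjusted p under 0.01 by limma and at least 2-fold. Of all 13246 rows tested, 14.2% were called higher and 15.3% lower. At an unadjusted p under 0.05 and 2-fold, the same number, 2 of the 9, passed, beside 4265 of all 13246 rows in either direction. Both knockout values lay above both wild-type values for 4 of the 9 genes (SLC7A11, GCLM, GCLC and NFE2L2) and below them for 1 (KEAP1), against 40.1% and 45.9% of all rows. The 4 genes with overlapping groups on the deposited scale were NQO1, SRXN1, HMOX1 and OSGIN1. The median log2 fold change of the 9 genes was −0.036 beside −0.09 for all rows. With the replicate number as a block the same 2 genes were called, beside 14.8% of rows higher and 16.2% lower. With a pseudocount of 1 or with libraries centred on their median SLC7A11 alone was called, beside 11.4% and 11% of rows higher. Leaving out wild-type replicate 1 kept 2 genes called (16.1% of rows higher), leaving out wild-type replicate 2 kept SLC7A11 (14% of rows higher), and leaving out either knockout library left 0 of all rows called by limma, with 4088 and 4263 rows at an unadjusted p under 0.05 and 2-fold. These shares do not set the 9 genes apart from the table as a whole.

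Rescaling each library to the same sum shifted the log2 fold change by 0.68, apart from the pseudocount. On the TPM scale, SLC7A11, GCLM and GCLC had log2 fold changes of 2.83, 1.69 and 1.44, and these 3 were called higher, as were 33.1% of all rows, while 3.37% were called lower. NQO1, SRXN1, HMOX1 and OSGIN1, at or below 0 as deposited, came to 0.55, 0.54, 0.64 and 0.27 on that scale, beside a median of 0.59 for all rows. NQO1 and HMOX1 passed 0.01 there at less than 2-fold (adjusted p = 0.00165 and 0.00704 by limma). SRXN1 and OSGIN1 did not (adjusted p = 0.0166 and 0.290 by limma). By TPM the groups of NQO1, HMOX1 and SRXN1 did not overlap, while those of OSGIN1 did. How many of all rows separated by TPM was not counted.

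**Figure D3:**
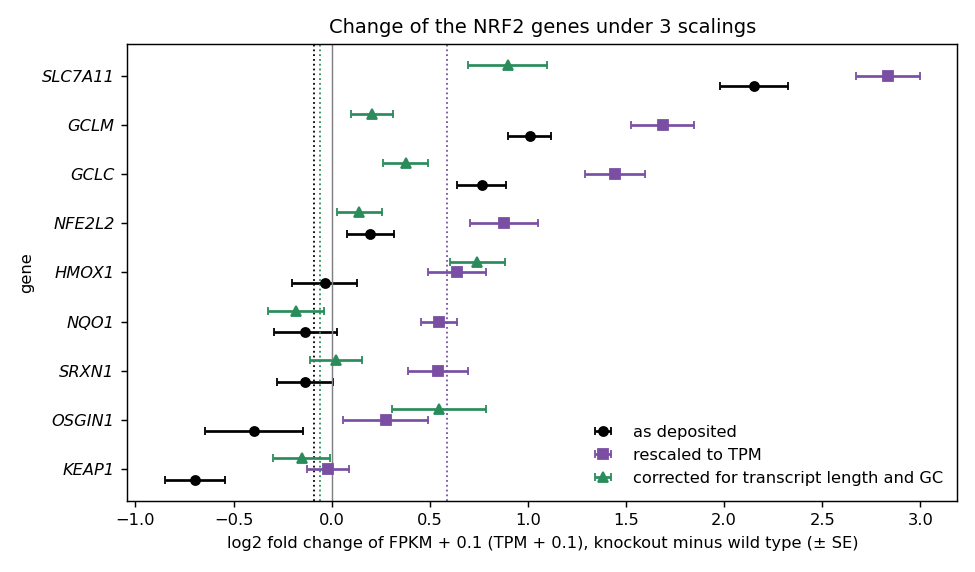
Log2 fold change (knockout minus wild type, ± SE from limma, 2 libraries per group) of the 9 genes as deposited, after rescaling to TPM and after correction for transcript length and GC content; dotted lines mark the median of all tested rows on each scale. SLC7A11 is farthest to the right on each scale, and GCLM moves from 1.01 to 0.20 under the correction.

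Transcript length and GC content moved with the change of all genes, and the 3 glutathione supply genes have the longest transcripts of the 9. Across 13112 genes of known transcript length, Spearman's rho of the log2 fold change was 0.495 with length and −0.462 with GC content, as a description, since genes share their libraries. In the longest of 10 equal classes of transcript length, which holds SLC7A11 (9645 nt, 35.4% GC), the median log2 fold change was 0.89. The medians were 0.41 in the class of GCLM (4883 nt, 37.3% GC) and 0.24 in that of GCLC (3785 nt, 44.2% GC). NFE2L2, KEAP1, NQO1 and SRXN1, from 2446 to 2565 nt, share a class with a median of −0.23. For HMOX1 (1554 nt) the median was −0.63 and for OSGIN1 (1922 nt) −0.47.

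After a loess correction of each library for length and GC content, SLC7A11 had a log2 fold change of 0.90 (SE 0.20, adjusted p = 0.0130 by limma), GCLC 0.38 (adjusted p = 0.0364 by limma) and GCLM 0.20 (adjusted p = 0.157 by limma). None of the 9 genes was then called, while 6.61% of rows were called higher and 7.65% lower, or 6.5% and 7.73% with the replicate block. HMOX1 came to 0.74 (SE 0.14, adjusted p = 0.00728 by limma) under the correction and passed 0.01 at less than 2-fold, whereas it was −0.036 without it. NQO1 stayed at −0.18 (adjusted p = 0.317 by limma). Whether length or GC content contributed to the difference of any single gene was not tested.

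**Figure D4:**
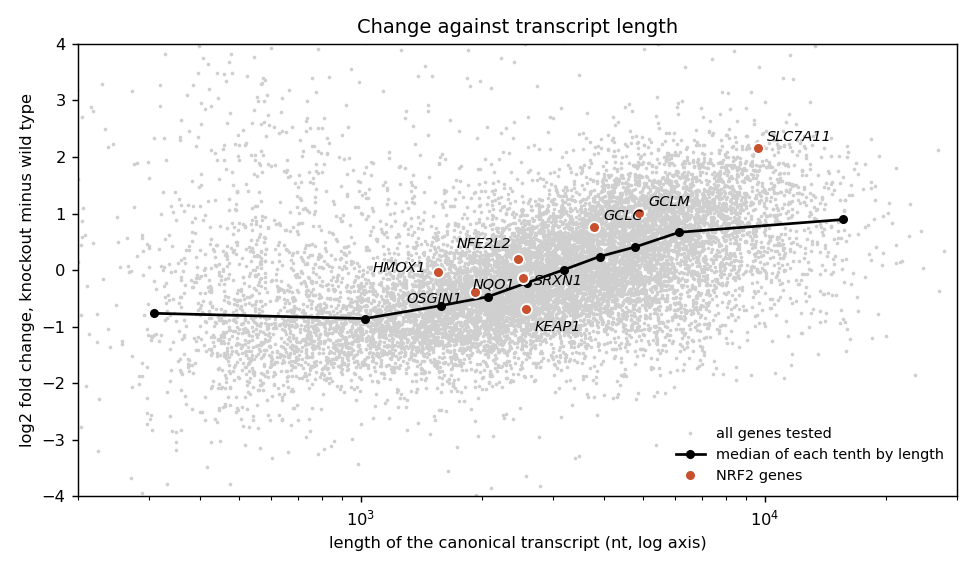
Log2 fold change of FPKM + 0.1 against the length of the canonical transcript (log axis) for all tested rows (grey), the median of each of 10 length classes (black) and the 9 genes (orange); genes outside the axis ranges are not drawn. The medians are −0.77 and −0.86 in the shortest 2 classes and 0.89 in the longest. All of the 9 genes except KEAP1 lie above the median of their length class. In classes of GC content, not drawn, NFE2L2, KEAP1, NQO1 and SRXN1 lie below the median of their class and the others above.

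A further 80 genes of the NRF2 pathway, in 7 lists, were examined in the same fit. Of these, 79 were in the table and 73 were tested, with 7 called higher and 7 lower, or 9.59% in each direction, beside 14.2% and 15.3% of all rows. Another 22 passed 0.01 at less than 2-fold, and 37 did not pass. The share of all rows in these classes was not counted. After rescaling to TPM, 20 of the 73 were called higher and 1 lower (GPX4), beside 33.1% and 3.37% of all rows. After the length and GC correction 3 were called higher and 2 lower, beside 6.61% and 7.65% of all rows. Of the 14 genes called as deposited, BACH1 and ABCC2 were still called after that correction. ALDH3A1 was newly called higher, with a corrected log2 fold change of 1.55 (adjusted p = 0.00167 by limma). CUL3 (−1.65, adjusted p = 0.00120 by limma) and AKR1C1 (−1.56, adjusted p = 0.00549 by limma) were newly called lower.

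Among 16 regulators and partners of NRF2, 15 were tested, 2 were called higher and 0 lower, beside 14.2% and 15.3% of all rows. At an unadjusted p under 0.05 and 2-fold, 2 of the 15 were higher and 0 lower. In either direction, 4265 of all 13246 rows passed that rule. BACH1, the repressor that competes with NRF2 for small MAF proteins and for antioxidant response elements, measured 4.67 and 4.21 FPKM without and 15.8 and 17.1 FPKM with the knockout. Its log2 fold change was 1.87 (SE 0.12, adjusted p = 0.000501 by limma), and 1.001 (adjusted p = 0.00162 by limma) after the length and GC correction. The loci of BACH1 and NFE2L2 overlap 8 and 11 other annotated genes, whose reads may be counted with theirs. The ratio of BACH1 to NFE2L2 was 0.132 and 0.140 in wild-type and 0.440 and 0.441 in knockout libraries. It is not corrected for length or GC content, and the log2 fold change of NFE2L2 was 0.14 after that correction. NFE2L3, a relative of NFE2L2 expressed near the filter limit, measured 1.07 and 0.944 FPKM without and 2.08 and 2.58 FPKM with the knockout, and its corrected log2 fold change was 0.82 (adjusted p = 0.0337 by limma). As deposited, the scaffold and RING subunits of the KEAP1 ligase were lower at less than 2-fold. CUL3 went from 33.8 and 42.2 to 22.8 and 25.3 FPKM, with a log2 fold change of −0.65 (adjusted p = 0.00865 by limma). After rescaling to TPM it was 0.030. After the length and GC correction it was −1.65 (adjusted p = 0.00120 by limma), and CUL3 was called lower. RBX1, which serves other cullin ligases too, went from 91.5 and 128.0 to 53.1 and 59.2 FPKM. MAFG, a small MAF partner, measured 18.9 and 15.1 FPKM without and 26.0 and 25.8 FPKM with the knockout. Its log2 fold change was 0.61 (adjusted p = 0.00874 by limma). The other small MAF genes listed did not pass 0.01. MAFF was at −0.28 (adjusted p = 0.212 by limma) and MAFK at 0.31 (adjusted p = 0.244 by limma). SQSTM1, the autophagy receptor that can sequester KEAP1, measured 689 and 589 FPKM without and 869 and 1027 FPKM with the knockout (adjusted p = 0.0297 by limma).

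In the list of glutathione synthesis and use, 18 of 20 genes were tested. Of these, 2 were called higher and 4 lower, beside 14.2% and 15.3% of all rows. The export pumps ABCC2 and ABCC4 were higher. ABCC2, which moves glutathione conjugates into bile, measured 10.1 and 8.67 FPKM without and 32.6 and 38.1 FPKM with the knockout, and it kept a log2 fold change of 1.21 (adjusted p = 0.00121 by limma) after the length and GC correction. ABCC4 measured 6.16 and 5.21 FPKM without and 13.6 and 12.7 FPKM with the knockout, a log2 fold change of 1.19 that was 0.43 (adjusted p = 0.0232 by limma) after the correction. The 4 genes called lower act on glutathione or use it. GPX4, the peroxidase that reduces lipid hydroperoxides, measured 457 and 581 FPKM without and 129.8 and 134 FPKM with the knockout, a log2 fold change of −1.97 (SE 0.16, adjusted p = 0.000538 by limma) that was −1.29 on the TPM scale and −0.96 after the correction. GSTP1, a glutathione transferase, measured 679.6 and 878 FPKM without and 227 and 261 FPKM with the knockout. GGT1, which cleaves extracellular glutathione, went from 12.4 and 15.3 to 5.43 and 5.57 FPKM, and GSTK1, a mitochondrial and peroxisomal transferase, from 103 and 121 to 48.8 and 55.9 FPKM. The corrected log2 fold changes of GSTP1, GGT1 and GSTK1 were −0.77, −0.70 and −0.32, against −1.67, −1.31 and −1.09 as deposited. The median log2 fold change of the list was −0.43.

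SLC3A2, the heavy chain that carries SLC7A11 to the cell surface, measured 688 and 811 FPKM without and 376 and 406 FPKM with the knockout. Its log2 fold change of −0.93 (adjusted p = 0.00316 by limma) was opposite in sign to that of SLC7A11. By TPM the change of SLC3A2 was −0.25 (adjusted p = 0.0142 by limma). After the length and GC correction it was −0.28 (adjusted p = 0.0997 by limma), so it passed 0.01 on neither scale. The ratio of SLC7A11 to SLC3A2 was 0.00760 and 0.00749 in wild-type and 0.0581 and 0.0728 in knockout libraries. This ratio is not corrected for length or GC content, and the transcripts differ in both (9645 nt, 35.4% GC and 1885 nt, 57.8% GC). SLC3A2 also pairs with other amino acid transporters, and its mRNA exceeded that of SLC7A11 per length in every library.

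In the thioredoxin branch all 6 genes were tested, and the cytosolic reductase was called higher and the mitochondrial reductase lower as deposited. TXNRD1, the cytosolic thioredoxin reductase and an NRF2 target, measured 153 and 152 FPKM without and 352 and 406 FPKM with the knockout, a log2 fold change of 1.31 (SE 0.13, adjusted p = 0.000722 by limma). After the length and GC correction it was 0.90 (adjusted p = 0.00222 by limma). Mitochondrial TXNRD2 measured 44.5 and 51.9 FPKM without and 21.3 and 21.8 FPKM with the knockout (log2 fold change −1.16, SE 0.11, adjusted p = 0.000726 by limma), and mitochondrial TXN2 went from 107 and 123 to 51.6 and 58.8 FPKM. After the correction TXNRD2 was at −0.30 (adjusted p = 0.0444 by limma) and TXN2 at −0.26 (adjusted p = 0.0756 by limma), and on the TPM scale at −0.48 and −0.38, so that neither was called. The ratio of TXNRD1 to TXNRD2 was 3.43 and 2.93 in wild-type and 16.5 and 18.7 in knockout libraries. TXNRD1 was 0.463 and 0.392 of NQO1 in wild-type libraries and 1.19 and 1.13 of NQO1 in knockout libraries. As deposited, NQO1 mRNA was therefore the more abundant of these 2 targets per length in wild-type libraries, and TXNRD1 mRNA in knockout libraries. Neither ratio is corrected for length or GC content. After that correction the log2 fold changes were 0.90 for TXNRD1 and −0.18 for NQO1.

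Of 8 genes for haem and iron handling, FECH, the ferrochelatase that completes haem, was called higher, and HMOX2, the constitutive haem oxygenase, was called lower. FECH measured 9.41 and 9.54 FPKM without and 18.0 and 21.1 FPKM with the knockout, and 0.13 in log2 fold change after the length and GC correction of its 7689 nt transcript. HMOX2 measured 45.5 and 56.7 FPKM without and 22.6 and 24.8 FPKM with the knockout, and its log2 fold change of −1.10 was −0.39 (adjusted p = 0.0352 by limma) after the correction. The ratio of HMOX1 to HMOX2 was 0.169 and 0.179 in wild-type and 0.362 and 0.366 in knockout libraries. It is not corrected for length or GC content, and the log2 fold change of HMOX1 was 0.74 after that correction. Of the 7 other reported targets in the table, SLC6A6, the taurine transporter, was called higher, from 10.7 and 9.05 to 22.8 and 25.1 FPKM, with a log2 fold change of 1.27 that was 0.83 after the correction. As deposited, limma called no gene among the 6 for NADPH production or the 13 tested for quinone, carbonyl and drug metabolism. The rule was an adjusted p under 0.01 and 2-fold. At an unadjusted p under 0.05 and 2-fold the numbers in either direction were 0 and 1, beside 4265 of all 13246 rows. Of these lists, 3 and 5 genes passed 0.01 at less than 2-fold, and the share of all rows there was not counted. After the length and GC correction, 1 of the 13 was called higher (ALDH3A1) and 1 lower (AKR1C1), beside 6.61% and 7.65% of all rows.

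**Figure D5:**
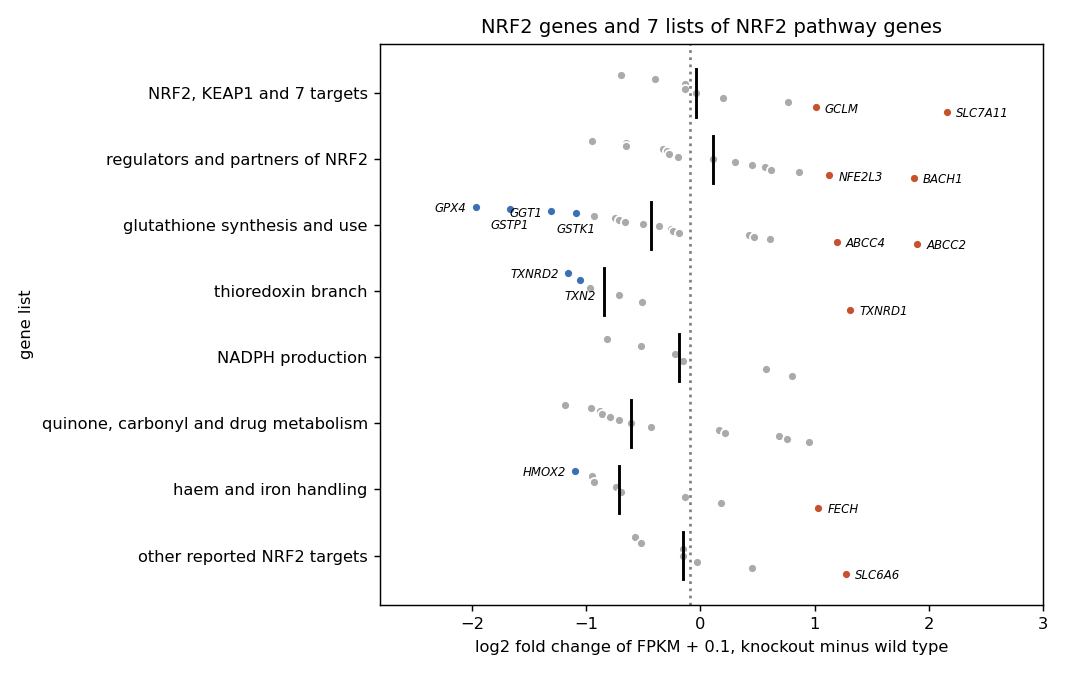
Log2 fold change of the 9 genes and of the tested genes of 7 pathway lists; orange points were called higher, blue points lower and grey points neither, black bars are list medians and the dotted line is the median of all rows, −0.09. The lists hold calls in both directions, and list medians lie between −0.84 (thioredoxin branch) and 0.11 (regulators).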

How the data were processed

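The authors mapped reads of 4 libraries to hg38 with TopHat2 and an Ensembl annotation and deposited FPKM per gene and library from Cuffdiff; the sources used here give no tool version, library normalization or strand setting. Reads of overlapping genes can therefore be shared. Of the 9 genes, only GCLM and HMOX1 overlap no other gene in GENCODE release 44. The deposited identifiers were out of register with the symbols and were put back in order, after which 34949 symbols equalled the current one, against 1 as deposited. The authors' fold change, p and q columns were not used. Depth is unknown, so no counting intervals are given.

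Rows with a mean above 1 FPKM were compared on log2(FPKM + 0.1), which understates changes of low genes, with limma 3.58.1 in R 4.3.3 (trend in the prior variance, no block, Benjamini-Hochberg over 13246 rows). Calls required an adjusted p under 0.01 and 2-fold. An exact permutation test of 2 against 2 cannot go below 0.333. Transcript length and GC content came from canonical transcripts (loess span 0.3). The steps were tested on simulated data.

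Genes named are the 9, up to 3 called genes per list and direction, and the 3 rows nearest to NFE2L2. GSTK1, GSS, SLC3A2, CUL3, RBX1, MAFG, MAFF, MAFK, SQSTM1, ALDH3A1 and AKR1C1 were chosen after values were seen. So were the genes whose ratios are given and the 10000 base search. Members and lists were chosen with earlier results of these data known. Figures used Python 3.11.15 and matplotlib 3.10.9.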

Additional observations from a re-analysis of the deposited data

How the results depend on the processing

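The count of 2 genes called higher became 3 after rescaling to TPM, 1 with a pseudocount of 1 or centring on the median (GCLM was lost), and 0 with the length and GC correction, with or without the replicate block. No setting called any of the 9 lower. Leaving out 1 library gave 0 to 2 called higher. Without either knockout library limma called 0 of all 13246 rows, with 4088 (without replicate 1) and 4263 (without replicate 2) at an unadjusted p under 0.05 and 2-fold; the lone library is then assumed to vary like the others. The median of the 9 genes was 0.64 by TPM, −0.18 centred and 0.20 corrected (0.20 with the block), and −0.12 to 0.084 with a library left out. Calls over all rows were 447 lower and 4380 higher by TPM, 1220 higher above 5 FPKM, 1003 lower and 867 higher corrected, and 1014 lower and 852 higher corrected with the block. With a library left out they were 0 to 2633 lower and 0 to 2136 higher.

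Signs turned as follows. By TPM, NQO1 became 0.55, HMOX1 0.64, SRXN1 0.54, OSGIN1 0.27 and TXNDC9 0.12. With the correction, HMOX1 became 0.74, SRXN1 0.021 and OSGIN1 0.55, the same with the block. With a library left out, HMOX1 ran from −0.24 (without wild-type replicate 1) to 0.17 (without wild-type replicate 2), and without knockout replicate 2 or 1 NQO1 was −0.27 or 0.0048 and SRXN1 −0.32 or 0.047. The cause was not tested. SLC7A11, GCLM, GCLC and NFE2L2 stayed above 0 and KEAP1 below 0 in all 15 alternatives.

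The deviations of same-numbered libraries correlated at −0.0904 across rows. With 2 libraries per group this value cannot decide whether the numbers pair the libraries. The replicate block gave 2146 lower and 1960 higher rows, 2 of the 9 genes higher and 0 lower. How many reads lie behind low genes such as NFE2L3 is unknown.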
